A study of Mus musculus with 6 samples.

Results

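The genes described here decide whether a cell starts and completes apoptosis: the Bcl2 family, the caspases, and the proteins that hold caspases in check. They were taken by symbol, as every gene whose name begins with Bcl2, consists of Casp and a number, or begins with Birc and a number, together with Mcl1, Bax, Bak1, Bid, Bad, Bbc3, Pmaip1, Bik, Bmf, Xiap, Apaf1, Diablo and Cflar. This gave 41 of the 34652 genes in the deposited table. By textbook role 16 of them protect cells, 17 promote death, and 8 (the inflammatory and skin caspases and the less studied Bcl2-like genes) stand on neither side. Of the 41 genes, 34 reached 1 FPKM (fragments per kilobase of gene length, scaled to a fixed total of fragments) in at least 3 of the 6 libraries and were tested. The 7 others are given with their levels at the end of the member descriptions.

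RNA was sequenced in bulk from macrophages sorted out of the cerebrospinal fluid of mice with leptomeningeal metastasis, 12 days after LLC-LeptoM cells (Lewis lung carcinoma cells selected for growth in the leptomeninges) were inoculated. All mice were Cx3cr1CreER:mTmG animals given tamoxifen, in which cells that expressed Cx3cr1 while Cre was active, and their progeny, turn from red to green fluorescence. Resident macrophages, called dLAMs by the study, were sorted as CD45+CD11b+F4/80+ cells with GFP and without Ly6C (3 libraries). Monocyte-macrophages lacked GFP and came from a mixture of a gate with F4/80 and a gate with low F4/80 and Ly6C (3 libraries), so that group is a blend by design. Neither the ages of the mice nor whether libraries of a group came from separate animals is stated in the labels.

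In the mitochondrial pathway of apoptosis, pro-survival Bcl2 proteins bind and restrain the pore formers Bax and Bak1, and BH3-only proteins release that restraint or activate the pore formers directly. Pores let cytochrome c and Diablo out of mitochondria, Apaf1 then assembles a platform that activates the initiator Casp9, and executioner caspases dismantle the cell. Death receptors activate Casp8 instead, which Cflar opposes, and inhibitor of apoptosis proteins (IAPs) block caspases or the signals that lead to them. Granulocytes are known to lean on Mcl1 for survival. Whether the macrophages studied here depend on Mcl1 or on the Bcl2a1 (A1) proteins was not tested.

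The estimated depth was between 1.23e+07 and 1.70e+07 fragments per library, and the libraries of each group carried the markers of their gates in part. All 8 border macrophage markers and all 6 microglia markers were higher in resident macrophages, and all 8 classical monocyte markers were lower. Markers of other cells differed too, as the plot of marker lists shows. Each of 10 T cell markers had higher levels in resident macrophages (194 to 253 FPKM in sum, against 6.35 to 33.9 in monocyte-macrophages), as were all 5 tested NK cell markers (43.4 to 53.6 against 2.17 to 8.45), all 5 tested B cell markers (216 to 862 against 13.8 to 67.9) and all 4 tested markers of mast cells and basophils (31.7 to 69.1 against 0.594 to 1.56). All 7 tested markers of migratory dendritic cells (228 to 314 against 17.8 to 29.0), 7 of 8 markers of conventional dendritic cells (79.0 to 130 against 16.0 to 18.5) and all 3 tested carcinoma markers (27.0 to 31.8 against 1.99 to 3.18) were higher as well. Most of the carcinoma sum in resident macrophages was Cdh1 (mean 21.6 FPKM) and Epcam (6.02), with Krt18 at 1.43. The keratin genes Krt7, Krt8 and Krt19 were too low to be tested. Krt7 was lower in resident macrophages, at 0.134, 0.123 and 0.234 against 0.264, 0.406 and 0.246 FPKM. All 10 cell cycle genes were lower in resident macrophages (89.7 to 107 against 319 to 479 FPKM), as were 6 of 10 neutrophil markers (1261 to 1629 against 2099, 7144 and 11780). A marker under 1 FPKM in all monocyte-macrophage libraries, such as Cpa3, Mcpt4 or Tpsb2, was tested only if every resident macrophage library reached 1 FPKM. For such markers the counts of tested markers that were higher were largely set by this filter. No list had all markers at 0 in either group. In monocyte-macrophages Krt19, Cpa3, Mcpt4 and Fcer1a were listed at 0 in each library. Where these levels move with a result below, their part in it was not tested, and in bulk RNA fewer cells of a type cannot be told apart from less RNA per cell.

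**Figure D1:**
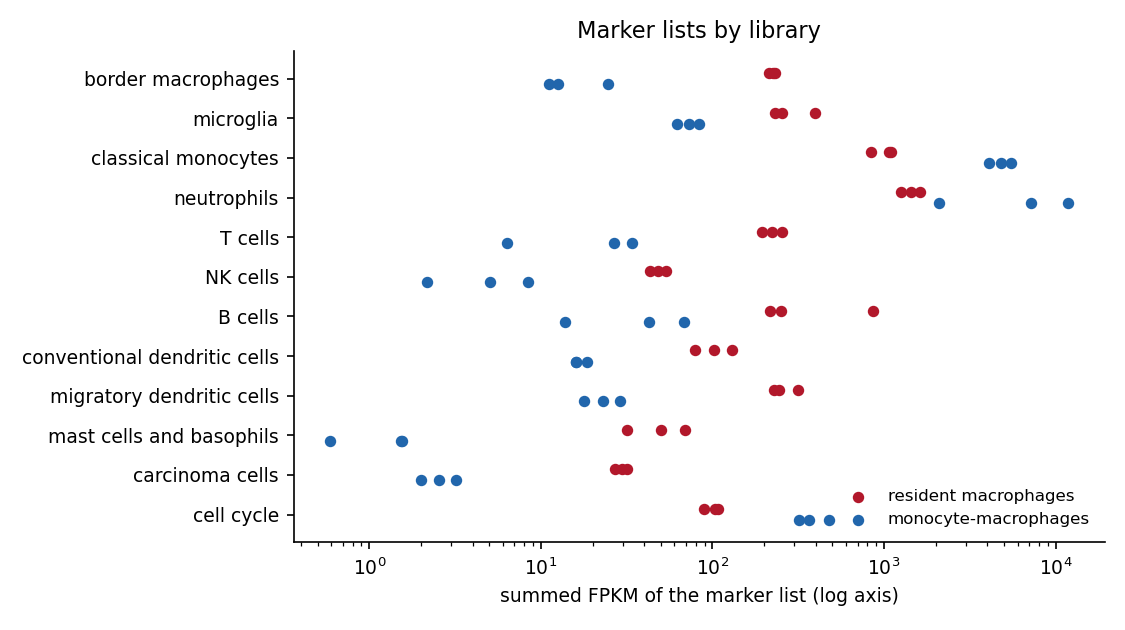
Summed FPKM of each marker list in each library (x axis, log scale; 1 row per list; red points are the 3 resident macrophage libraries, blue points the 3 monocyte-macrophage libraries). T cell markers sit between 194 and 253 FPKM in resident macrophages and between 6.35 and 33.9 in monocyte-macrophages, and cell cycle genes between 89.7 and 107 against 319 to 479.

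Of the 34 tested genes 9 were higher and 4 lower in resident macrophages (limma, adjusted p under 0.05), that is 26.5% and 11.8%, beside 19.9% and 10.6% of the 11317 genes tested (30.5% in either direction). The share of lower members is near that background. Bcl2l14, 1 of the 9 higher members, passed the filter on low values only through the resident macrophage libraries. By side, 6 of 13 pro-survival genes were higher and 1 lower, with a median log2 fold change of 0.08, and of 16 pro-death genes 2 were higher and 3 lower, with a median of -0.02. Both medians were near that of all tested genes, 0.06, and the difference between the sides was not tested. The 6 higher pro-survival genes were Bcl2a1a, Bcl2a1b, Bcl2a1d, Bcl2, Bcl2l1 and Birc2, and 3 of these are near-identical copies that do not count as independent genes. Birc5 was the pro-survival gene that was lower. The split moved with the scaling of the libraries. With median-of-ratios scaling 8 of the 34 were higher and 8 lower, or 23.5% each, beside 15.9% and 14.7% of all tested genes. With quantile normalization 8 were higher and 9 lower, or 23.5% and 26.5%, beside 15.9% and 15%, the quantile step moving the median over all genes by -0.11 on the log2 scale. With either scaling 6 pro-survival genes were called higher. Resident macrophage library 3 and monocyte-macrophage library 2 held more Y-linked RNA than the others, and a fit of the other 4 libraries called 6 members higher and 2 lower, the calls of Birc2, Bcl2l14, Bid, Bax and Casp6 ending. The groups did not overlap in 18 of the 34 members (52.9%), 9 in each direction. Among all genes tested this held for 46.2%, with resident macrophages higher in 29.3% and lower in 16.9%.

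**Figure D2:**
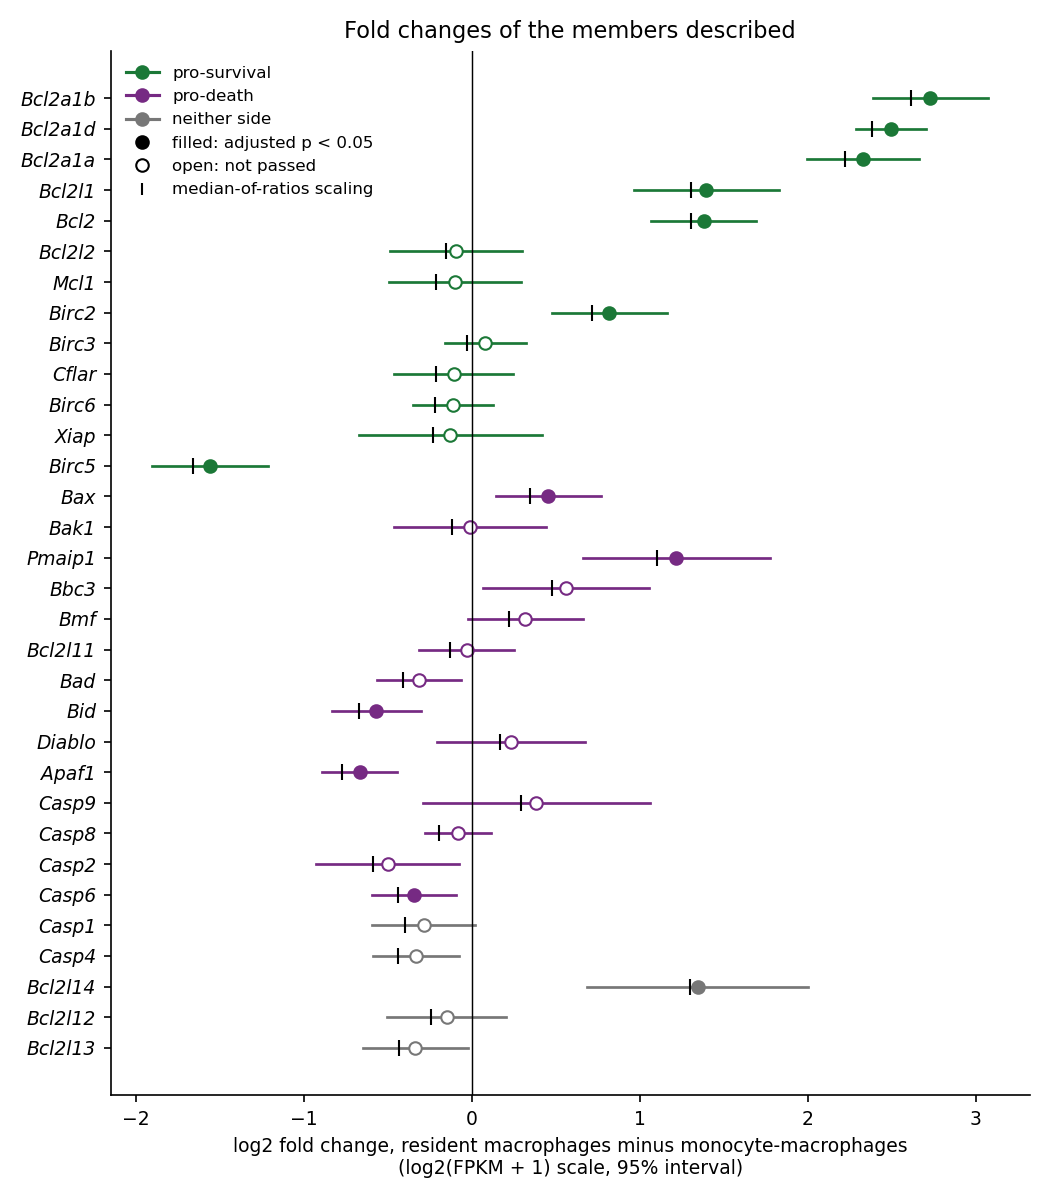
Log2 fold changes of the tested genes described in the text (x axis, on the log2(FPKM + 1) scale, positive where resident macrophages were higher; bars are 95% intervals from limma; rows are grouped by role). Filled points passed at an adjusted p under 0.05, open points did not, and the short black lines show the value with median-of-ratios scaling; the 3 Bcl2a1 genes lie farthest to the right, at 2.33 to 2.73, and Birc5 farthest to the left, at -1.56.

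The Bcl2a1 genes had the largest rises among the members on the log2(FPKM + 1) scale, while the ratio of means was larger for Bcl2l14, a gene of low level. They encode A1, a short-lived pro-survival protein that binds BH3-only proteins, and mice carry several copies of the gene on chromosome 9. In mm10 Bcl2a1d lies at 88723285 to 88731914 on the minus strand, Bcl2a1a at 88956900 to 88962419 and Bcl2a1b at 89199209 to 89207827, both on the plus strand, while Bcl2a1c lies apart at 114330135 to 114330578. The copies are alike in transcript and promoter, which bears on how their reads can be told apart. The transcripts of Bcl2a1b and Bcl2a1d differed at 7 of 817 aligned bases, those of Bcl2a1a and Bcl2a1d at 10 of 819 and those of Bcl2a1a and Bcl2a1b at 15 of 817. Between 14.2% and 30.3% of the stretches of 150 bases in these 3 transcripts, the length of 1 read per the labels, occurred letter for letter in another copy, and between 43.5% and 67.6% of those of 75 bases. The promoter stretches that the 3 copies share are printed here to show this likeness, from RefSeq on GRCm38.p6, 5′ to 3′ on the strand of the gene, at chr9:88956714-88956969 (plus strand) for Bcl2a1a, chr9:89199023-89199278 (plus strand) for Bcl2a1b and chr9:88731801-88732050 (minus strand) for Bcl2a1d; capitals mark bases that are not the same in all 3 when aligned.
Bcl2a1a: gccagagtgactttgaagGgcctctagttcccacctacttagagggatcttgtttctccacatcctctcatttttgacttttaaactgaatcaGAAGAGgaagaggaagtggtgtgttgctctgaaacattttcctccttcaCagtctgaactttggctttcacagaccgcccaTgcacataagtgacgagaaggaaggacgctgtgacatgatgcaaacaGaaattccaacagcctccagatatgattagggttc
Bcl2a1b: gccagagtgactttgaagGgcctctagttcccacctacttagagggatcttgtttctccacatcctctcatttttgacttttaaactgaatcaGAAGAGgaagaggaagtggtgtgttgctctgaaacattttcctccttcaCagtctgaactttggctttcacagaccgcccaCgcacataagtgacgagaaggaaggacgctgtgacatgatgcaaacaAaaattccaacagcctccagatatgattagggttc
Bcl2a1d: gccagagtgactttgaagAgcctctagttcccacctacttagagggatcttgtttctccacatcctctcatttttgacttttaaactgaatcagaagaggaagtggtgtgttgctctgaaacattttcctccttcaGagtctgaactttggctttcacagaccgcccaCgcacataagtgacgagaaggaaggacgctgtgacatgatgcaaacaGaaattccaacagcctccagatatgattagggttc
Of 256 aligned positions 246 were the same in all 3 promoters, 4 held a substitution and 6 were a stretch that Bcl2a1d lacks. Each of the 3, and Bcl2a1c as well, held the letters GAGGAAGT, the motif of the myeloid factor PU.1, searched on both strands of the window from 250 bases before to 50 bases after the start site. Of 32851 RefSeq promoter windows 3.2% held it, and 7 of the 36 member genes with an entry did. The 7 include Bcl2a1a, Bcl2a1b, Bcl2a1c and Bcl2a1d, copies of like sequence that are not independent. For each motif members were counted by gene, where any window of the gene suffices, so their counts and the shares of windows are in unlike units. The consensus motif of NF-kB, known as a regulator of A1 and of the cIAP genes, was found in 8.46% of all windows and in those of 6 member genes (Bbc3, Bcl2l1, Birc5, Bmf, Casp4 and Xiap). The CHR letters TTTGAA, known from promoters of cell cycle genes, were in 17.9% of all windows and in those of 9 member genes, the 3 printed ones among them. These matches describe letters only.

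In order of library number, Bcl2a1d stood at 184, 186 and 173 FPKM in resident macrophages, while monocyte-macrophages had 30, 32.7 and 31 FPKM. Bcl2a1b stood at 180, 187 and 151 against 20.7, 26.6 and 28.7 FPKM. Bcl2a1a stood at 68.4, 72.9 and 58.5 against 10.7, 14.9 and 11.9 FPKM. In each of the 3 genes the lowest resident macrophage library was several times above the highest monocyte-macrophage library, so the groups did not overlap. The means differed 5.79-fold for Bcl2a1d (180.8 ± 6.93 against 31.3 ± 1.36 FPKM; log2 fold change 2.49, SE 0.09, adjusted p = 9.3e-06), 6.82-fold for Bcl2a1b (log2 fold change 2.73, SE 0.15, adjusted p = 3.1e-05) and 5.32-fold for Bcl2a1a (log2 fold change 2.33, SE 0.14, adjusted p = 4.9e-05; ± is SD and n = 3 throughout). Because reads can move between copies, the 3 rows were also summed to 1, an alternative chosen after the values were seen: the sum was higher by 2.59 (SE 0.12, adjusted p = 2.1e-05). Of the summed Bcl2a1 level, Bcl2a1d held 43.1% ± 1.90 in resident macrophages and 45.4% ± 3.06 in monocyte-macrophages, and Bcl2a1b 41.0% ± 1.33 and 36.5% ± 3.29. Bcl2a1a held 15.8%, 16.3% and 15.3% against 17.4%, 20.1% and 16.6%, without overlap. Bcl2a1b shares 49.1% of its exon length with Gm29094, a gene model on the same strand, which was at 14.8, 10.8 and 4.73 against 1.98, 1.5 and 4.96 FPKM. The resident macrophage libraries also held more RNA of migratory dendritic cell and T cell markers, and the part of such cells in the Bcl2a1 levels was not tested.

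**Figure D3:**
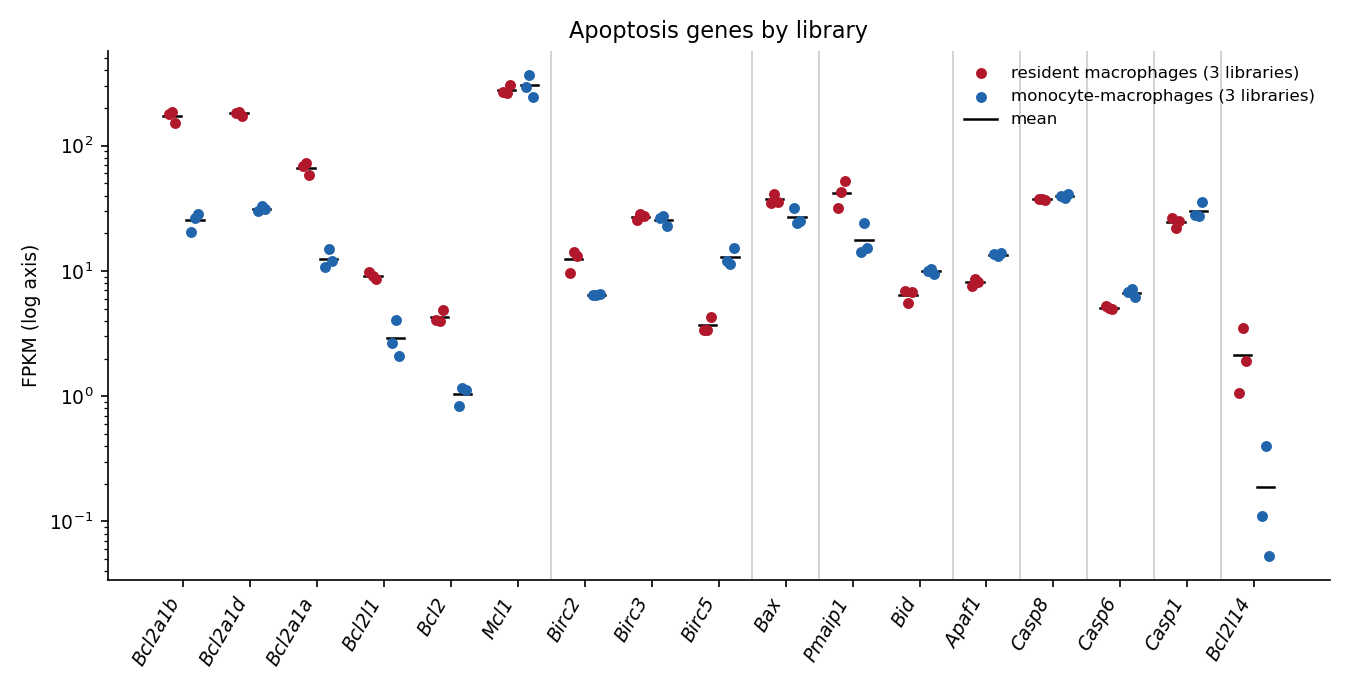
FPKM of the 13 called genes and of 4 others with a mean of at least 20 FPKM (y axis, log scale), with 3 points per group and a black line at the mean; red is resident macrophages and blue monocyte-macrophages, and grey lines separate roles. Bcl2a1b, Bcl2a1d and Bcl2a1a show the widest gap among genes above 10 FPKM in either group, Birc5 the reverse, and Mcl1, Birc3 and Casp8 lie close together in both groups.

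Mcl1, the short-lived pro-survival protein that granulocytes are known to depend on, had the highest level of all members in both populations and did not pass the test. In resident macrophages it was listed at 268, 265 and 304 FPKM, and in monocyte-macrophages at 295, 368 and 245. The resident values lay inside the range of the others. The log2 fold change was -0.10 with a 95% interval from -0.49 to 0.29 (adjusted p = 0.70), and its sign turned with quantile normalization (0.08). The balance of Mcl1 and Bcl2a1 differed between the populations. Summed over the 9 pro-survival Bcl2 family rows, the level was 715, 726 and 701 FPKM in resident macrophages and 361, 449 and 320 in monocyte-macrophages, a ratio of means of 1.89. Mcl1 made up 37.5%, 36.5% and 43.4% of that sum in resident macrophages and 81.7%, 81.9% and 76.4% in monocyte-macrophages. The 4 Bcl2a1 rows made up 60.5%, 61.5% and 54.5% against 17%, 16.5% and 22.4%. These shares are taken within a library and do not change when a library is multiplied by a factor. In every resident macrophage library Bcl2a1 was the larger part, and in every monocyte-macrophage library Mcl1 was. How reads shared by the Bcl2a1 copies were counted is not stated. Reads dropped, or counted in more than 1 copy, would shift these shares, and the size of such a shift was not tested.

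**Figure D4:**
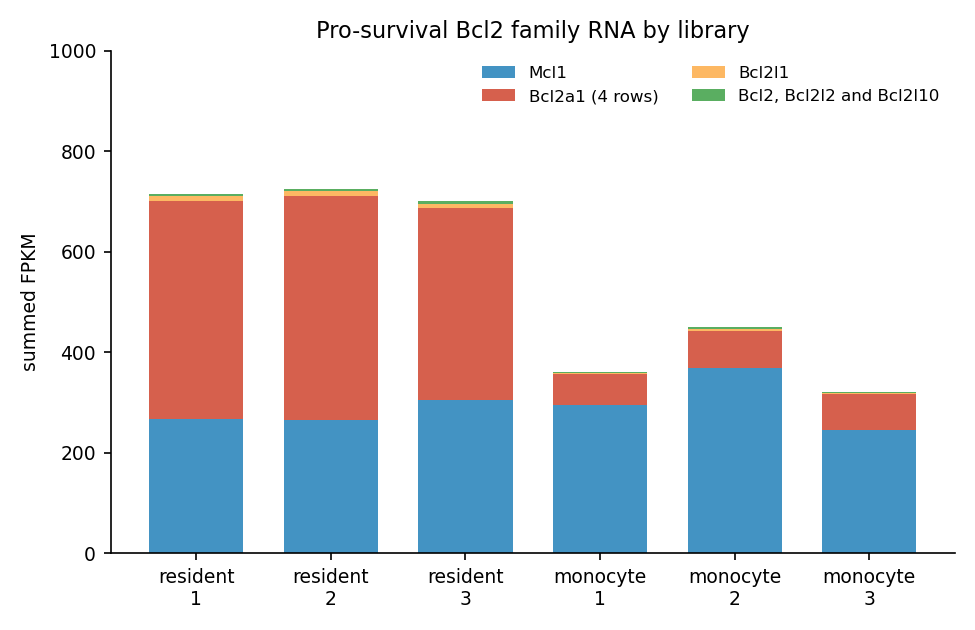
Summed FPKM of the pro-survival Bcl2 family in each library (stacked bars from 0; blue is Mcl1, red the 4 Bcl2a1 rows, yellow Bcl2l1, green Bcl2, Bcl2l2 and Bcl2l10 together). The Mcl1 part is of like height in all 6 bars, 245 to 368 FPKM, and the Bcl2a1 part is 382 to 446 FPKM in resident macrophages and 61.4 to 74.2 in monocyte-macrophages.

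Bcl2 and Bcl2l1, the founding pro-survival gene and the gene of Bcl-xL, were low in both populations and higher in resident macrophages. Bcl2 was listed at 4.08, 3.99 and 4.88 FPKM against 0.837, 1.16 and 1.13. Bcl2l1 was listed at 9.73, 9.17 and 8.57 FPKM against 2.67, 4.06 and 2.08. Neither gene's groups overlapped. The ratio of means was 4.15 for Bcl2 (log2 fold change 1.38, SE 0.13, adjusted p = 3.2e-04) and 3.12 for Bcl2l1 (log2 fold change 1.40, SE 0.19, adjusted p = 0.0012). With a pseudocount of 0.1 in place of 1, the log2 fold change of Bcl2 was 1.96. Both kept their call in every alternative in which they were tested. T cells are known for Bcl2 and mature dendritic cells for Bcl2l1. Every tested marker of T cells and of migratory dendritic cells was called higher in the same libraries. Their sums were 194 to 253 against 6.35 to 33.9 FPKM for T cells and 228 to 314 against 17.8 to 29.0 for migratory dendritic cells. The part of these cells in the levels of Bcl2 and Bcl2l1 was not tested. Bcl2l2, which encodes the pro-survival protein Bcl-w, had means of 1.08 ± 0.0922 and 1.25 ± 0.454 FPKM and did not pass (log2 fold change -0.09, 95% interval -0.49 to 0.30), though it was called lower with quantile normalization (log2 fold change -0.49, adjusted p = 0.047).

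Among the IAPs and Cflar 1 of 6 tested genes was higher and 1 lower, or 16.7% each. These shares are near the 19.9% and 10.6% of all genes tested. Birc2 and Birc3 encode cIAP1 and cIAP2, ubiquitin ligases that steer tumor necrosis factor signals toward survival. They are neighbours on chromosome 9 on the minus strand, Birc2 at 7818227 to 7837064 and Birc3 at 7848699 to 7873186. In resident macrophages Birc2 was listed at 9.64, 14.2 and 13.2 FPKM, and in monocyte-macrophages at 6.45, 6.45 and 6.53. All resident values were above the monocyte-macrophage values, which lay close together. The ratio of means was 1.91 (log2 fold change 0.82, SE 0.15, adjusted p = 0.0049). Birc3 was listed at 25.3, 28.4 and 27.5 against 26.3, 27.5 and 23.0 FPKM, and its groups overlapped. Its log2 fold change was 0.08 with a 95% interval from -0.16 to 0.32 (adjusted p = 0.60), and -0.03 with median-of-ratios scaling. As a share of the pair, Birc2 was 31.1% ± 3.10 in resident macrophages and 20.3% ± 1.62 in monocyte-macrophages.

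Birc5 encodes survivin, an IAP-family protein that serves chromosome segregation in dividing cells, and fell most among the members. In resident macrophages it was listed at 3.35, 3.39 and 4.32 FPKM, and in monocyte-macrophages at 12, 11.3 and 15.2, with no overlap. The mean was 3.48-fold higher in monocyte-macrophages (log2 fold change -1.56, SE 0.15, adjusted p = 2.9e-04). All 10 cell cycle genes were lower in the same resident macrophage libraries, with a median log2 fold change of -1.68. The other tested members of the group did not pass. Xiap, the IAP that inhibits executioner caspases directly, had means of 11.7 ± 1.18 and 13.3 ± 4.35 FPKM, the giant ligase gene Birc6 14.4 ± 0.694 and 15.7 ± 1.32, and Cflar, the Casp8 decoy known as c-FLIP, 10.6 ± 0.542 and 11.6 ± 2.50. Their log2 fold changes lay between -0.13 and -0.11; without monocyte-macrophage library 3, whose Xiap level of 8.33 FPKM was the lowest of the 6, Xiap was called lower (log2 fold change -0.41, adjusted p = 0.049).

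Among the pro-death genes the BH3-only gene Pmaip1 showed the largest difference. It encodes Noxa, which binds Mcl1 and A1 and promotes the breakdown of Mcl1. In resident macrophages Pmaip1 was listed at 31.7, 42.9 and 52.2 FPKM, and in monocyte-macrophages at 14.1, 24.0 and 15.2. The groups did not overlap, although resident macrophage library 1 and monocyte-macrophage library 2 came within 8 FPKM of each other. The ratio of means was 2.38 (log2 fold change 1.22, SE 0.24, adjusted p = 0.0073). Pmaip1 also had the highest level of the 7 BH3-only genes in every library, with 60.6% ± 5.01 of their summed level in resident macrophages and 37.3% ± 5.72 in monocyte-macrophages.

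Bid, which Casp8 cleaves to link death receptors to mitochondria, moved the other way. In resident macrophages it was listed at 6.89, 5.55 and 6.76 FPKM, and in monocyte-macrophages at 10.0, 10.3 and 9.53, with no overlap, and its mean was 1.55-fold higher in monocyte-macrophages (log2 fold change -0.57, SE 0.11, adjusted p = 0.0078). The exons of Bid overlap those of Bcl2l13 on the other strand over 17.7% of the length of Bid, and no strand setting is given in the sources used here. Exons of other members overlap further genes as well. On the other strand this held for Bcl2l12 (28.9%), Bak1 (25.5%), Diablo (21.5%) and Bad (20.5%), and on the same strand for Bcl2l2 (13.3%) and Bax (12.2%), among others. The effect of these overlaps on the values was not tested. The other 4 tested BH3-only genes did not pass. Bcl2l11, which encodes Bim, a main killer of leukocytes, had means of 7.31 ± 0.823 and 7.46 ± 0.710 FPKM (log2 fold change -0.03, 95% interval -0.31 to 0.25, with the sign turned on the TPM scale, at 0.02). Bmf, a sensor linked to the cytoskeleton, had 4.87 ± 0.733 and 3.71 ± 0.603 FPKM, and Bbc3, the p53 target Puma, 3.11 ± 0.745 and 1.81 ± 0.654; without monocyte-macrophage library 2 Bbc3 was called higher (log2 fold change 0.73, adjusted p = 0.038). Bad, which survival kinases switch off, had 4.86 ± 0.148 and 6.29 ± 0.464 FPKM with no overlap and an adjusted p of 0.061. It was called lower with median-of-ratios scaling (adjusted p = 0.0236) and with quantile normalization (adjusted p = 0.0226).

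Of the pore formers Bax and Bak1, which open the mitochondrial outer membrane, Bax had the higher level in every library. In resident macrophages Bax was listed at 35.1, 41.1 and 35.7 FPKM, and in monocyte-macrophages at 32.1, 24.1 and 25, so that the groups were separate by the narrow gap between resident library 1 and monocyte-macrophage library 1. The ratio of means was 1.38 (log2 fold change 0.46, SE 0.13, adjusted p = 0.036). That call ended with median-of-ratios scaling (adjusted p = 0.12), without a filter (adjusted p = 0.059), and without any 1 of resident macrophage libraries 1, 2 and 3 (adjusted p = 0.071, 0.13 and 0.076) or monocyte-macrophage libraries 2 and 3 (adjusted p = 0.092 and 0.094). Bak1 had means of 15.8 ± 2.62 and 16.1 ± 4.12 FPKM (log2 fold change -0.01, 95% interval -0.46 to 0.44, and 0.04 on the TPM scale).

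Downstream of the pores, Apaf1, the scaffold of the apoptosome, stood at 7.57, 8.67 and 8.21 FPKM against 13.7, 13.1 and 13.8, resident macrophages first. The groups were far apart relative to their spread. The mean was 1.66-fold higher in monocyte-macrophages (log2 fold change -0.67, SE 0.10, adjusted p = 0.0018), a call that every alternative kept. Diablo, the mitochondrial protein that displaces IAPs from caspases, was low, at 1.79 ± 0.414 and 1.38 ± 0.477 FPKM, and did not pass; its log2 fold change of 0.24 turned to -0.03 with quantile normalization.

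No initiator caspase passed in limma, and 1 of the 3, Casp2, had an unadjusted p under 0.05. Casp8, the initiator of the death receptor route, was listed at 37.5, 37.4 and 37.1 FPKM against 40.0, 37.9 and 40.9. Its groups did not overlap, but the step was small: the log2 fold change was -0.08 with a 95% interval from -0.28 to 0.11 (adjusted p = 0.50). Casp9, which Apaf1 activates, had means of 3.97 ± 0.526 and 3.02 ± 1.5 FPKM, the low mean following monocyte-macrophage library 2 at 1.32 FPKM. Casp2, an initiator linked to stress in dividing cells, had 3.21 ± 0.908 and 4.90 ± 0.698 FPKM. Casp2 missed the threshold (adjusted p = 0.077) and was called lower with median-of-ratios scaling (adjusted p = 0.047), with quantile normalization (adjusted p = 0.040) and without resident macrophage library 1 (adjusted p = 0.041).

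Casp6, the executioner best known for cleaving nuclear lamin, was listed at 5.21, 5.10 and 4.94 FPKM against 6.83, 7.19 and 6.17. All resident values were below all monocyte-macrophage values (log2 fold change -0.34, SE 0.11, adjusted p = 0.044). The call of Casp6 ended on the TPM scale (adjusted p = 0.13), without any 1 of resident macrophage libraries 1, 2 and 3 (adjusted p = 0.11, 0.12 and 0.13) and without monocyte-macrophage library 1 or 2 (adjusted p = 0.094 and 0.10).

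The inflammatory caspases Casp1 and Casp4 (mouse caspase-11), neighbours on chromosome 9 at 5298517 to 5307265 and 5308828 to 5336783, cleave gasdermin D and, for Casp1, interleukin 1 beta. In resident macrophages Casp1 was listed at 26.6, 21.9 and 25.2 FPKM, and in monocyte-macrophages at 28.0, 27.4 and 35.5. These groups were separate, with a log2 fold change of -0.29 and a 95% interval from -0.59 to 0.02 (adjusted p = 0.14). Casp4 had means of 7.19 ± 0.663 and 9.32 ± 0.607 FPKM, also without overlap, and an adjusted p of 0.055. It was called lower with median-of-ratios scaling (adjusted p = 0.016), quantile normalization (adjusted p = 0.019) and a filter of 5 FPKM (adjusted p = 0.049).

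Of the less studied Bcl2-like genes only Bcl2l14 passed. It encodes Bcl-G and stood at 1.05, 3.50 and 1.90 FPKM in the resident libraries, beside 0.110, 0.398 and 0.0533 in those of monocyte-macrophages. The groups did not overlap, and the resident macrophage libraries spread widely. The estimated number of fragments behind these values was 63.7, 176 and 96.5 against 6.18, 22.9 and 3.71. Only the resident macrophage libraries reached 1 FPKM, so Bcl2l14 could enter the test only through the group in which it was high. The ratio of means was 11.5 (log2 fold change 1.34, SE 0.28, adjusted p = 0.0097). At these low levels the log2 fold change of Bcl2l14 depended on the scale: it was 3.004 with a pseudocount of 0.1, 2.33 on the TPM scale and 0.89 with quantile normalization, where the call ended (adjusted p = 0.053). Conventional dendritic cell markers were highest in resident macrophage library 2 too, at 130 FPKM beside 102 and 79.0 in libraries 1 and 3. Libraries 1 and 3 stood in the reverse order for Bcl2l14, and a link between the marker sum and Bcl2l14 was not tested. Bcl2l13, a mitochondrial outer membrane protein known from mitophagy, had 4.93 ± 0.270 and 6.53 ± 1.12 FPKM without overlap (adjusted p = 0.099), and was called lower with median-of-ratios scaling (adjusted p = 0.033) and quantile normalization (adjusted p = 0.029). Bcl2l12 had 4.59 ± 0.563 and 5.23 ± 1.03 FPKM.

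The 7 genes that missed the filter were close to 0. Casp14, the caspase of skin, was listed at 0 in all 6 libraries. Birc7 was listed above 0 only in monocyte-macrophage library 3, at 0.0619 FPKM, and Bcl2l10 did not exceed 0.0666 FPKM. Bcl2a1c had 0.305, 0.915 and 0 FPKM in resident macrophages and was listed at 0 in monocyte-macrophages, which rests on an estimated 2 and 5 fragments. Bik, a BH3-only gene of epithelia, was listed at 0.573, 0.258 and 0 FPKM against 0 in each monocyte-macrophage library. Casp12 stood at 0.321 to 0.496 FPKM in resident macrophages and 0.133 to 0.210 in monocyte-macrophages, and Bcl2l15 at 0.0838 to 0.540 against 0.0565 to 0.110.

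Ratios of 2 members were taken within each library. Since 1 was added to each FPKM, they still depend in part on the scale where a gene is low, as Bcl2 is. The log2 ratio of Bcl2 to Bax, computed on FPKM + 1, was -2.83, -3.08 and -2.64 in resident macrophages and -4.17, -3.54 and -3.61 in monocyte-macrophages. It was higher in every resident macrophage library, by 0.92 in the mean, and by 1.49 with a pseudocount of 0.1. The log2 ratio of Mcl1 to Bcl2l11 was 5.13, 5.05 and 5.05 against 5.21, 5.31 and 4.92, and the groups overlapped, with a difference in means of -0.07. A pair of further ratios was added after the values were seen. The log2 ratio of Mcl1 to Pmaip1 was 3.04, 2.60 and 2.52 against 4.30, 3.88 and 3.92, lower in every resident macrophage library. The log2 ratio of Birc2 to Birc3 was -1.31, -0.95 and -1.01 against -1.87, -1.94 and -1.67. No test was made on the ratios.

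**Figure D5:**
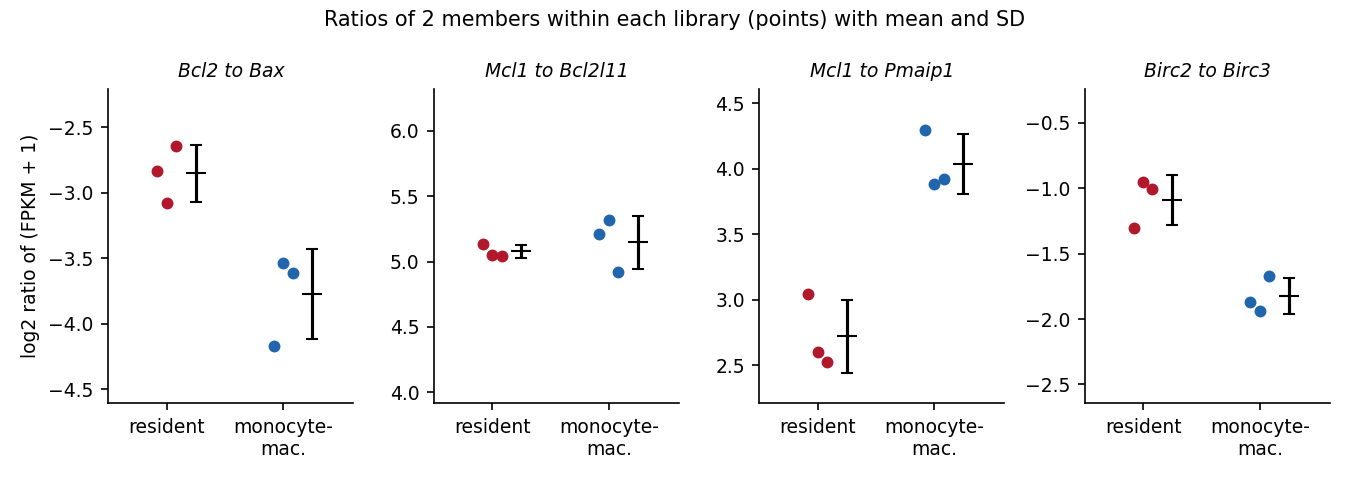
Log2 ratio of (FPKM + 1) of 2 genes in each library (y axis; panels span the same range of 2.4; red points are resident macrophages, blue points monocyte-macrophages; black marks are mean and SD over 3 libraries). Bcl2 to Bax and Birc2 to Birc3 lie higher and Mcl1 to Pmaip1 lower in resident macrophages, while the groups overlap for Mcl1 to Bcl2l11.

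The partners of these genes in 5 lists of cell death pathways gave 9 higher and 7 lower genes among 54 tested, or 16.7% and 13%, which is close to the 19.9% and 10.6% of all genes. The median log2 fold change was 0.03. In the list of death receptor signalling 3 of 13 tested genes were higher and 1 lower: the ligand genes Fasl (log2 fold change 1.5, adjusted p = 8.2e-04) and Tnfsf10 (TRAIL; 1.22, adjusted p = 0.0021), the adaptor gene Fadd (0.41, adjusted p = 0.045), and the receptor gene Tnfrsf1a, which fell (-0.36, adjusted p = 0.025). Fasl is made by T and NK cells, whose markers were higher in the same libraries, and the part of these cells in its level was not tested. Fasl reached 1 FPKM only in resident macrophages, and so could enter the test only through them. The call of Fadd ended in 13 of the 14 alternatives run, leaving out any 1 library included (adjusted p up to 0.16), and that of Tnfrsf1a in 7 of 15 (adjusted p up to 0.098). These 7 include leaving out any resident macrophage library, or the first of the monocyte-macrophage libraries.

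In the p53 list 3 of 8 tested genes were higher, or 37.5%, beside 19.9% of all genes tested. They were Sesn1, a stress-induced sestrin gene (log2 fold change 1.23, adjusted p = 4.6e-04), Trp53 itself (0.50, adjusted p = 0.033) and Ccng1 (0.38, adjusted p = 0.020). The calls of Trp53 and Ccng1 ended with median-of-ratios scaling and without resident macrophage library 1 or 2, which left 1 gene. Of 11 tested genes of mitochondrial and nuclear execution 1 was called, or 9.09%: Parp1, a caspase substrate and DNA damage sensor, was higher (0.77, adjusted p = 0.0064). In the list of pyroptosis and inflammasome genes 1 of 13 was higher and 5 lower. These were 7.69% and 38.5%, beside 19.9% and 10.6% of all genes tested. Mefv, which encodes pyrin, fell by 1.09 on the log2 scale (adjusted p = 4.4e-04), and Naip6 and Naip5, sensors of bacterial proteins, by 0.80 and 0.71. The Naip genes are known as a family of similar copies, and how well their reads can be told apart was not tested. Nlrp1b was higher by 0.80. Of 9 tested genes of necroptosis and ferroptosis 1 was higher and 1 lower, or 11.1% each. Hmox1, heme oxygenase, was higher (0.85, adjusted p = 0.015). Its call ended when either resident macrophage library 1 or monocyte-macrophage library 3 was left out. Mlkl, the pore former of necroptosis, fell by 0.63 (adjusted p = 0.0075).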

How the data were processed

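The authors deposited FPKM values in 1 table of 34652 genes with 1 column for each of 6 libraries. Per the submitters' processing notes, FastQC, HISAT2 and featureCounts were used with build mm10; their versions, settings, strand handling and annotation are not stated there. Since FPKM hold no counts, limma was used in place of a count model. Steps of 1 read among low values, with exon lengths of GENCODE M21 on mm10 (94.5% of symbols matched, all 41 members among them), gave the depths; only 40.5% to 44.2% of values under 20 reads were whole to within 0.02 reads, and counts could not be recovered.

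Genes with at least 1 FPKM in at least 3 libraries (11317) entered the fit on the log2(FPKM + 1) scale. It was made with limma 3.58.1 under R 4.3.3, with a term for the group and a mean-variance trend. P-values are two-sided with Benjamini-Hochberg adjustment over all genes tested, and the threshold was 0.05. Standard errors (SE) and 95% intervals are limma's; SDs are over 3 libraries and folds are ratios of mean FPKM. The fit was tested on simulated data first, with 200 of 11317 genes changed. It recovered 0% of them at a log2 size of 0.5, 71.5% at 1 and 93.5% at 2, with 0, 7 and 14 false calls. In the data 30.5% of the 11317 genes were called, so the adjustment was less strict there than with 200 genes changed. The recovered shares therefore do not carry over to the data, where Casp6 was called at -0.34 and Bid at -0.57. A member that did not pass may still differ between the groups. P-values measure the spread among these 6 libraries only, and that spread may be technical. The members, roles and lists were chosen with earlier results of these data known. Values per library are given for members that passed or averaged at least 20 FPKM, and the other members are given by means; for pathway lists at most 3 called genes in each direction are named. Some members and markers enter the counts but are not reported here by name. Promoters were aligned with mafft. Tables were handled with pandas 2.3.3 and figures drawn with matplotlib 3.10.9 under Python 3.11.15.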

Additional observations from a re-analysis of the deposited data

How the results depend on the processing

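Of the 13 called members, 8 kept their call in every alternative run: Apaf1, Bcl2, Bcl2a1a, Bcl2a1b, Bcl2a1d, Bcl2l1, Birc5 and Pmaip1. None of the 13 changed sign. Over all tested members and alternatives, 449 of 501 values kept direction and side of the threshold, 21 lost the call, 15 gained it and 16 changed sign. With median-of-ratios scaling 8 members were lower, 1 pro-death gene was higher and 5 were lower, and the pro-death median was -0.12; with quantile normalization 9 members, 5 pro-death and 2 pro-survival genes were lower. Without a filter 1 pro-death gene was higher, and with a filter of 5 FPKM 1247 of all genes were higher, fewer genes being tested. With the replicate number as a block 1 pro-death gene was higher, the calls of Bax and Casp6 ended (adjusted p = 0.081 and 0.091), and 1860 of all genes were higher and 999 lower. Deviations of same-numbered libraries correlated at 0.19, -0.15 and -0.09. The largest correlation, 0.39, was between resident macrophage library 3 and monocyte-macrophage library 2, and both held more Y-linked RNA. With 3 libraries in each group such values cannot settle whether the numbers pair the libraries. A split by Y-linked RNA was also tried: a term for it gave 9 members higher and 5 lower, and the 4 libraries with less of it gave 1480 genes higher and 780 lower, with 2 members lower, 1 pro-death gene higher and 1 lower, and the calls of Bid, Birc2 and Bcl2l14 ending at adjusted p = 0.051, 0.053 and 0.050; the other pair of libraries allows no test. Leaving out 1 library at a time gave 780 to 1220 genes lower (780 without resident macrophage library 2), 1590 to 2096 higher, 1 to 2 pro-death genes higher (1 without any resident macrophage library, Bax being lost) and 1 to 2 pro-survival genes lower (2 without monocyte-macrophage library 3, Xiap being added). The Bcl2 to Bax difference was 1.49 with a pseudocount of 0.1, which the low level of Bcl2 sets, and 0.73 to 1.04 with 1 library left out. Signs turned only for members that had not passed: on the TPM scale Bak1 (0.042) and Bcl2l11 (0.017), with median-of-ratios scaling Birc3 (-0.030), with quantile normalization Diablo (-0.029) and Mcl1 (0.080), within the 4 libraries Bcl2l2 (0.024), Cflar (0.051) and Xiap (0.0034), and with 1 library left out Bak1 (-0.18 to 0.17), Bcl2l11 (-0.11 to 0.040), Bcl2l2 (-0.23 to 0.059), Cflar (-0.26 to 0.033), Mcl1 (-0.24 to 0.051) and Xiap (-0.41 to 0.042). Where no cause is named it was not tested. FPKM hold no counts, so depth limits only genes of a few fragments, such as Bcl2a1c, Bcl2l14 in monocyte-macrophages and the other genes under 1 FPKM.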
